A study of Rattus norvegicus with 13 samples.

Results

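The TGF-beta and BMP pathway genes of the rat mammary gland were described here as 51 rows, of 14790 genes in the expression table, whose symbol belongs to the TGF-beta, BMP, activin, GDF, latent TGF-beta binding protein, gremlin 1, noggin, follistatin, SMAD, SMURF, ID or BAMBI names. RNA-seq libraries came from mammary epithelial cells of Wistar-Furth rats, prepared by collagenase digestion of the abdominal and inguinal glands, and 1 library was made per rat. The younger group held 6 rats aged 6 weeks, an age within the window of susceptibility (WOS) to mammary carcinogenesis, and the older group held 7 rats aged 10 weeks, outside the WOS. The labels name no other treatment or allele. The digested fragments were ducts rather than sorted cells, and the paper describes them as mostly epithelial, with stromal fibroblasts and immune cells present. Each value below is a normalized count, taken here to be a read count that the authors had scaled between libraries and rounded. A log2 fold change is the 6-week mean over the 10-week mean on the log2(normalized count + 1) scale. It was fitted with limma over all 14790 genes. A gene was called at a Benjamini-Hochberg adjusted p under 0.05.

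Ligands of the TGF-beta superfamily are secreted proteins that bring together type I and type II serine/threonine kinase receptors. The type I receptor phosphorylates receptor-regulated SMADs, which enter the nucleus with the common SMAD4 and act on target genes such as the *Id* genes. Latent TGF-beta binding proteins hold TGF-beta in the matrix, antagonists such as noggin and follistatin bind ligands before they reach a receptor, and SMAD7 and the SMURF ubiquitin ligases limit receptor signalling. In the mammary gland the pathway is known for restraining ductal growth and for its role in exchange between epithelium and stroma.

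Of the 51 members, 3 were higher at 6 weeks, 5 were higher at 10 weeks and 43 did not pass the threshold. The genes higher at 6 weeks were *Fstl1*, *Gdf10* and *Fst*, all of them secreted, and they amounted to 5.88% of the members beside 8.71% of all genes. The genes higher at 10 weeks were *Smad9*, *Acvr1b*, *Tgfbr3*, *Smad3* and *Smurf1*, all of them receptors or intracellular proteins, and they amounted to 9.8% of the members beside 7.39% of all genes. In total 15.7% of the members were called, close to the 16.1% called over all genes. The groups did not overlap for 4 members (*Fstl1*, *Smad9*, *Smad3* and *Acvr1b*), which is 7.84% of the members beside 6.07% of all genes. The median log2 fold change was 0.09 over the members and 0.03 over all genes, and 60.8% of the members and 52.5% of all genes lay above 0.

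**Figure D1:**
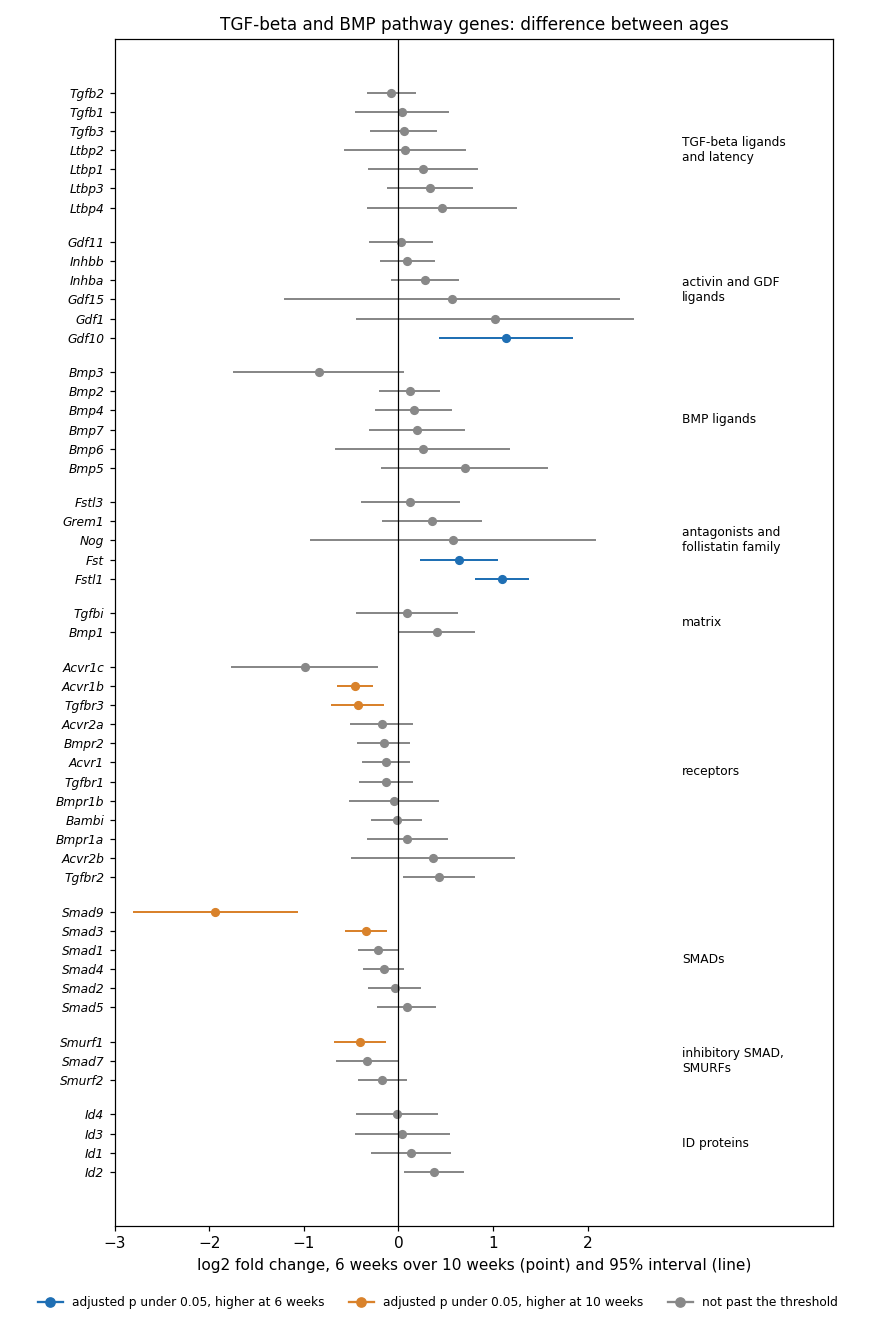
Log2 fold change of each of the 51 members (horizontal axis, 6 weeks over 10 weeks; the line is the 95% interval from limma), with genes grouped by role on the vertical axis. The 3 blue genes (higher at 6 weeks) are secreted, and the 5 orange genes (higher at 10 weeks) are receptors, SMADs or a SMURF.

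Only *Fstl1*, *Acvr1b* and *Smad9* were called with all rats and in each of the 13 fits that left out 1 rat. Their promoters are shown because these are the differences that no single rat decides. The sequences are the 250 bases before the gene start in the RefSeq rat assembly GRCr8, 5′ to 3′ on the strand of the gene, which is not the build of the expression table. Capitals mark the SMAD box (CAGAC or, on the other strand, GTCTG) and the GC-rich SMAD motif (GGCGCC, the same on both strands; the motifs may share end letters).
*Fstl1* promoter, chr11:76454054-76454303, minus strand: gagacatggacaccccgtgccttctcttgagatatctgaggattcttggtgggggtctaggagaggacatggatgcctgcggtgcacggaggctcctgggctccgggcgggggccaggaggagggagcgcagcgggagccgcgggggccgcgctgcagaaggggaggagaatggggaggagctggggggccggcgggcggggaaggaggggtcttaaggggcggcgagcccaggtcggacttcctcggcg
*Acvr1b* promoter, chr7:134164751-134165000, plus strand: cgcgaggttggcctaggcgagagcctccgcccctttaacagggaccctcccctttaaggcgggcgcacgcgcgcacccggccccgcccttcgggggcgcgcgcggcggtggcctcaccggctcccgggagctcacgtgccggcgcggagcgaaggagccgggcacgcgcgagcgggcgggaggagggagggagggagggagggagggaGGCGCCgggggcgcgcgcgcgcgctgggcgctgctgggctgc
*Smad9* promoter, chr2:141106418-141106667, plus strand: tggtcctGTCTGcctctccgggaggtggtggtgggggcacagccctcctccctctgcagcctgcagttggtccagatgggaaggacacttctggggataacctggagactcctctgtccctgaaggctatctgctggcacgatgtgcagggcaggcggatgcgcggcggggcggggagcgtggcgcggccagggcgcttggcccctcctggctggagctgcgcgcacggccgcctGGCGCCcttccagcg

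The *Fstl1* window held neither motif, the *Acvr1b* window held 1 GC-rich motif starting 42 bases before the gene start, and the *Smad9* window held 1 SMAD box starting 243 bases and 1 GC-rich motif starting 15 bases before it. Windows were found for 44 of the 51 members by symbol. The SMAD box was present in 8 of them (18.2%), beside 42.9% of all 33469 RefSeq promoter windows and 41.8% of the 10104 windows of genes in the expression table. The GC-rich motif was present in 12 member windows (27.3%), beside 8.69% of all windows and 17.0% of those of genes in the table. The member windows were also richer in G and C, with a median of 66.0% (range 28.4% to 86.8%) beside 51.2% for all windows and 60.0% for those of genes in the table, and the part of base composition in the motif counts was not tested. These matches describe letters in the window and do not show binding.

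The secreted antagonists and the follistatin family held 2 of the 3 members that were higher at 6 weeks. These were 2 of the 5 genes of this role (40.0%, beside 8.71% of all genes higher at 6 weeks and 16.1% called in either direction). *Fstl1* encodes follistatin-like 1, a secreted glycoprotein that shares the follistatin domain. Its normalized count ran from 2960 to 3944 (median 3471) in the 6-week rats and from 1291 to 1951 (median 1640) in the 10-week rats. All 6 younger rats lay above all 7 older rats. *Fstl1* was 2.14-fold higher at 6 weeks (log2 fold change 1.10, SE 0.13, limma adjusted p = 0.00021), the smallest adjusted p among the members.

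*Fst* encodes follistatin, which binds activins. At 6 weeks its normalized count lay between 364 and 478 (median 470.5), and at 10 weeks between 208 and 461 (median 259). Rats 81 and 83 of the older group, at 461 and 384, reached into the younger range, and the other 5 older rats lay below every younger rat. *Fst* was 1.55-fold higher at 6 weeks (log2 fold change 0.64, SE 0.19, limma adjusted p = 0.0358). The remaining antagonists *Grem1*, *Fstl3* and the BMP inhibitor *Nog* were not called, with log2 fold changes from 0.12 for *Fstl3* to 0.57 for *Nog*. *Nog* was read at 22 to 27 in the younger rats and at 0 to 43 in the older rats, where 1 rat (78) stood at 0, and its 95% interval ran from -0.93 to 2.08.

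Among the activin and GDF ligands 1 of 6 was called (16.7%, near the 16.1% called over all genes). *Gdf10* encodes a BMP-related ligand, also called BMP3B. Its normalized count was low, from 12 to 43 (median 25.5) at 6 weeks and from 6 to 23 (median 10) at 10 weeks. The groups overlapped through rat 81, the highest older rat, and through the lower younger rats, while all 6 younger rats lay above the older median. *Gdf10* was 2.20-fold higher at 6 weeks (log2 fold change 1.14, SE 0.32, limma adjusted p = 0.0318). The other 5 genes of this role had log2 fold changes above 0, from 0.03 for *Gdf11* to 1.02 for *Gdf1*. *Gdf1* was read at 10 to 42 at 6 weeks and at 0 to 33 at 10 weeks, and it is transcribed together with *Cers1*, so its reads are uncertain. *Inhba* and *Inhbb*, which encode the activin and inhibin beta subunits, had log2 fold changes of 0.28 (95% interval -0.07 to 0.63) and 0.10 (-0.18 to 0.37).

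*Gdf15*, a stress-responsive ligand of the superfamily, varied widely between rats of the same age, from 18 to 286 at 6 weeks and from 11 to 237 at 10 weeks. Its log2 fold change was 0.57 with a 95% interval from -1.20 to 2.33. Over all genes, the first principal component of the values after removing the age means held 28.3% of the variance and split the 13 rats into a larger set of 8 (4 of each age) and a smaller set of 5 (rats 75 and 80 at 6 weeks, 78, 81 and 83 at 10 weeks). The members helped to form these sets, so values by set are a description. *Gdf15* was read at 140 to 286 in the smaller set and at 11 to 131 in the larger set, with no overlap. Of the other members, *Ltbp4*, which encodes a latent TGF-beta binding protein, also did not overlap between the sets, at 1146 to 1891 in the smaller and 359 to 1090 in the larger. The share of all genes without overlap between the sets was not counted, so this is not shown to be particular to the members.

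None of the 7 TGF-beta ligands and latency proteins and none of the 6 BMP ligands was called, beside 16.1% of all genes. For the 3 TGF-beta ligands the log2 fold changes were small, at 0.04 for *Tgfb1* (95% interval -0.45 to 0.52), -0.08 for *Tgfb2* (-0.33 to 0.18) and 0.06 for *Tgfb3* (-0.29 to 0.40). *Tgfb2* had the narrowest interval of these, with younger rats at 345 to 473 and older rats at 340 to 477. The 4 latent TGF-beta binding protein genes lay between 0.07 for *Ltbp2* and 0.46 for *Ltbp4*. Among the BMP ligands, 5 of 6 lay above 0, from 0.12 for *Bmp2* to 0.70 for the weakly read *Bmp5*. *Bmp3*, which encodes an antagonist-like BMP, had the opposite sign at -0.84 (95% interval -1.74 to 0.05), and it spread widely at 10 weeks, from 110 to 948 against 181 to 404 at 6 weeks. Without rat 81 *Bmp3* was called.

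The matrix members *Bmp1* and *Tgfbi* were not called. *Bmp1* encodes a metalloprotease that processes procollagen and cleaves the antagonist chordin, and it is a BMP by name only. Its normalized count ran from 832 to 1419 (median 1034) at 6 weeks and from 589 to 1232 (median 815) at 10 weeks, and all 6 younger rats lay above the older median. Its log2 fold change was 0.41 (SE 0.18, unadjusted p = 0.0411, limma adjusted p = 0.14). *Tgfbi*, a TGF-beta-induced matrix protein gene, stood at 0.09 (95% interval -0.43 to 0.62).

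The 12 receptor genes, with the pseudo-receptor *Bambi*, held 2 calls (16.7%, near the 16.1% called over all genes), both higher at 10 weeks. *Acvr1b* encodes ALK4, a type I receptor for activins. Its normalized count ran from 383 to 417 (median 409) in the younger rats and from 520 to 617 (median 547) in the older rats. The ages did not overlap, and the younger rats other than rat 86 (383) lay within 407 to 417. *Acvr1b* was 1.37-fold higher at 10 weeks (log2 fold change -0.46, SE 0.08, limma adjusted p = 0.00297). *Tgfbr3* encodes betaglycan, a co-receptor that presents TGF-beta2 and binds inhibin. It was read at 1750 to 2461 (median 2194.5) at 6 weeks and at 2378 to 3490 (median 2847) at 10 weeks. The groups overlapped only in that 1 older rat (83) lay below the 2 highest younger rats. The log2 fold change of *Tgfbr3* was -0.43 (SE 0.13, limma adjusted p = 0.0359).

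*Acvr1c* and *Tgfbr2* had unadjusted p-values under 0.05 in opposite directions and were not called. *Acvr1c* encodes ALK7, another type I receptor, and its normalized count ran from 7 to 42 (median 33) at 6 weeks and from 35 to 88 (median 57) at 10 weeks. Of the older rats 6 lay above every younger rat, and rat 75 stood apart at 7, with the next younger rat at 31. The log2 fold change was -0.99 (SE 0.36, unadjusted p = 0.0152, limma adjusted p = 0.0747). *Tgfbr2*, the type II TGF-beta receptor gene, was read at 736 to 1281 (median 1077) at 6 weeks and at 496 to 1009 (median 800) at 10 weeks. The groups overlapped over much of the range, and 5 of 6 younger rats lay above the older median. Its log2 fold change was 0.43 (SE 0.17, unadjusted p = 0.0259, limma adjusted p = 0.104), with a sign opposite to those of its partners *Tgfbr1* (-0.13, 95% interval -0.41 to 0.14) and *Tgfbr3*. The other 8 genes of this role, the BMP receptors *Bmpr1a*, *Bmpr1b* and *Bmpr2* among them, lay between -0.18 for *Acvr2a* and 0.36 for *Acvr2b*.

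**Figure D2:**
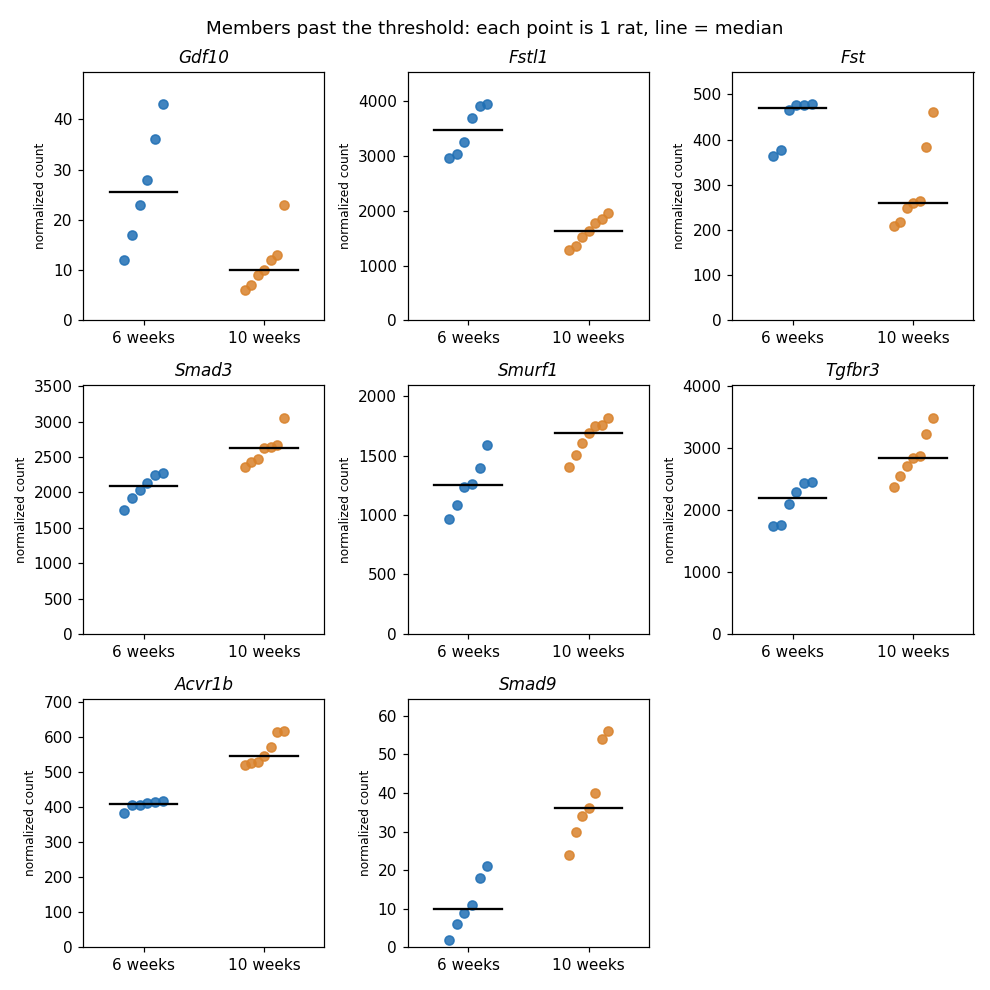
Normalized count (vertical axis, from 0) of the 8 called members in each rat, with 6-week rats in blue, 10-week rats in orange, points ordered by value within an age and a black line at the median. *Fstl1*, *Smad3*, *Acvr1b* and *Smad9* do not overlap between the ages, and *Gdf10*, *Fst*, *Smurf1* and *Tgfbr3* do.

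Among the 6 receptor-regulated and common SMADs, 2 were called (33.3%, beside 16.1% of all genes) and both were higher at 10 weeks. *Smad9* encodes SMAD8, a BMP-responsive SMAD. It had the largest difference of any member and was weakly read, at 2 to 21 (median 10) in the younger rats and 24 to 56 (median 36) in the older rats. All 7 older rats lay above all 6 younger rats. *Smad9* was 3.83-fold higher at 10 weeks on the log2(normalized count + 1) scale (log2 fold change -1.94, SE 0.40, limma adjusted p = 0.00699). *Smad3* transduces TGF-beta and activin signals. Its normalized count ran from 1747 to 2277 (median 2084) at 6 weeks and from 2365 to 3055 (median 2625) at 10 weeks. Here too the ages did not overlap. The log2 fold change of *Smad3* was -0.34 (SE 0.10, limma adjusted p = 0.0322), or 1.27-fold higher at 10 weeks.

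*Smad2*, which acts in the same branch as *Smad3*, had a log2 fold change of -0.04 (95% interval -0.31 to 0.23). *Smad1* and *Smad5*, which act in the BMP branch with *Smad9*, stood at -0.22 and 0.09, and the common *Smad4* at -0.15 (95% interval -0.36 to 0.05). Of these *Smad1* had an unadjusted p under 0.05 (0.0351, SE 0.09, limma adjusted p = 0.126), with younger rats at 966 to 1199 (median 1116) and older rats at 1111 to 1405 (median 1279). For *Smad1*, 6 of 7 older rats lay above every younger rat.

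The inhibitory arm held 1 call among 3 genes (33.3%, beside 16.1% of all genes). *Smurf1* encodes a ubiquitin ligase that targets SMADs and receptors, and its normalized count ran from 966 to 1587 (median 1250) at 6 weeks and from 1407 to 1819 (median 1693) at 10 weeks. Of the older rats 5 lay above every younger rat, and rat 75 (1587) was the younger rat that reached into the older range. The log2 fold change was -0.41 (SE 0.12, limma adjusted p = 0.041). *Smad7*, the inhibitory SMAD, had a log2 fold change of -0.33 (SE 0.15, unadjusted p = 0.0454, limma adjusted p = 0.149), with values of 716 to 1220 (median 887.5) at 6 weeks and 947 to 1442 (median 1155) at 10 weeks. Rats 75 and 80 were the younger rats with the highest *Smad7*, and 4 of 6 younger rats lay below every older rat. *Smurf2* stood at -0.17 (95% interval -0.42 to 0.08).

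The *Id* genes encode helix-loop-helix proteins without a DNA-binding domain and are textbook BMP targets. None of the 4 was called, beside 16.1% of all genes. *Id2* came closest, with 184 to 324 (median 219.5) at 6 weeks and 147 to 208 (median 177) at 10 weeks. All 6 younger rats lay above the older median of *Id2*, and its log2 fold change was 0.38 (SE 0.14, unadjusted p = 0.0196, limma adjusted p = 0.0875). *Id1*, *Id3* and *Id4* lay between -0.01 and 0.13, and the 95% interval of *Id3* ran from -0.45 to 0.54.

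Divided by place in the cell, a grouping made after the values were seen, the 26 secreted members held all 3 genes higher at 6 weeks (11.5% of them, near the 8.71% of all genes) and none higher at 10 weeks, with 24 of 26 log2 fold changes above 0, beside 52.5% of all genes, and a median of 0.26. The 25 receptors and intracellular members held all 5 genes higher at 10 weeks (20.0%, beside 7.39% of all genes) and none higher at 6 weeks. Of these 25, 18 lay below 0 and 7 above 0, beside 52.5% of all genes above 0, with a median of -0.13. The median of all genes was 0.03. Further pathway genes outside the members did not all keep to this division. The receptor gene *Acvrl1* and the intracellular regulator *Rbl1* were higher at 6 weeks (limma adjusted p = 0.0182 and 0.00844). The extracellular regulator *Thbs1* was higher at 10 weeks. Among the targets that encode secreted proteins, *Ctgf*, *Cyr61* and *Timp1* were also higher at 10 weeks, and *Postn*, *Fn1* and *Col1a1* were higher at 6 weeks. No test of this division was made.

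**Figure D3:**
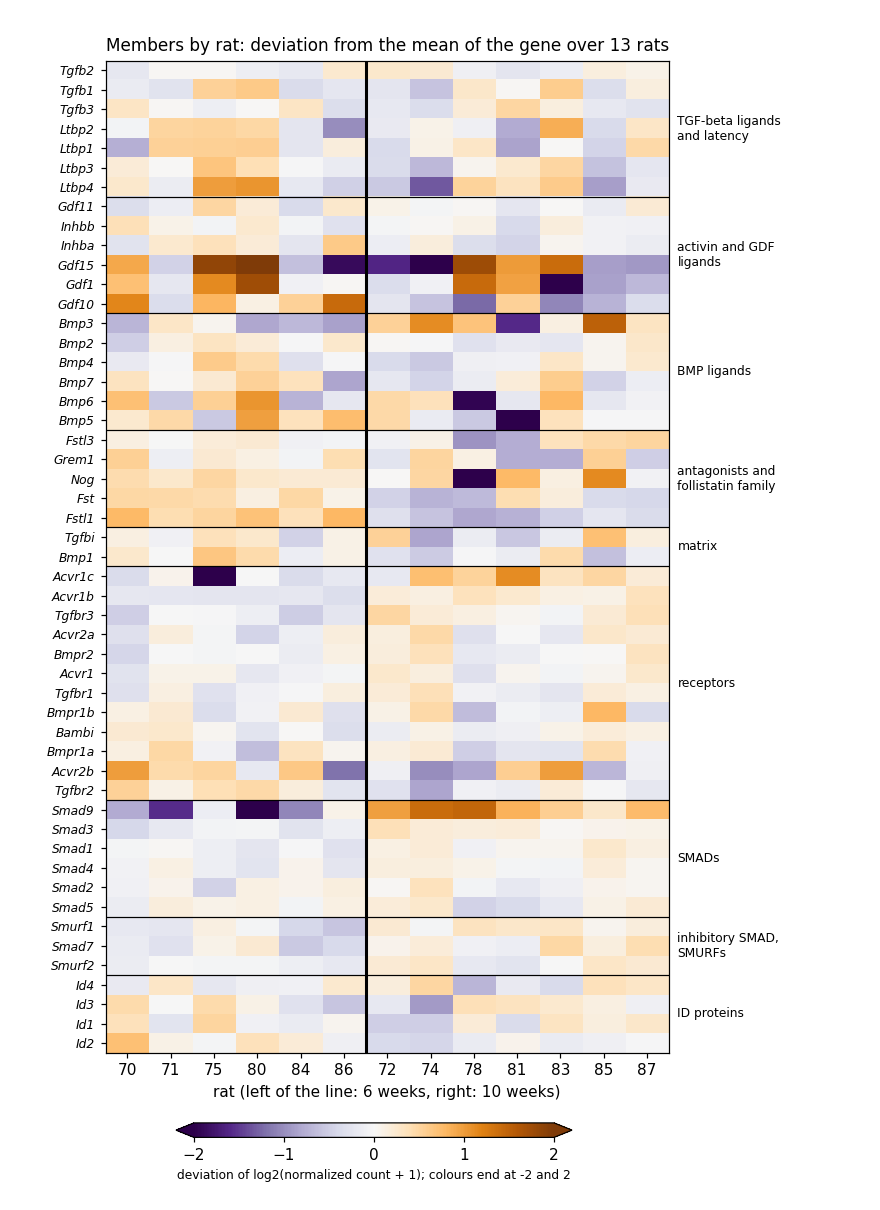
Deviation of log2(normalized count + 1) from the mean of each gene over 13 rats (colour), with 1 member per row grouped by role and 1 rat per column. *Fstl1* is high in every column left of the line (6 weeks) and *Smad9* and *Acvr1b* in every column right of it (10 weeks), while *Gdf15* and *Ltbp4* follow rats 75, 80, 78, 81 and 83 at either age.

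Some lists of marker genes also differed between the ages, and others did not. Of the fibroblast list, 9 of 15 genes were called higher at 6 weeks and none higher at 10 weeks, and its score (log2(normalized count + 1) averaged over the listed genes) ran from 10.98 to 11.72 at 6 weeks and from 9.53 to 10.73 at 10 weeks, without overlap. The mast cell list held 7 of 9 genes higher at 6 weeks (score 6.29 to 7.23 against 3.56 to 5.84) and 1 higher at 10 weeks (*Kit*, which is also in the luminal list), and the cell cycle list 14 of 14 (6.86 to 8.08 against 3.61 to 6.14). No fibroblast marker was at 0 in any rat, whereas the mast cell markers *Ms4a2*, *Tpsb2*, *Tpsab1* and *Hdc* reached 0 in the older group. The adipocyte list held 3 of 8 genes higher at 6 weeks (score 5.94 to 6.92 against 5.25 to 6.01), the endothelial list 1 of 10, the lymphocyte list 1 of 5 and the macrophage and skeletal muscle lists none of 10 and none of 3. The luminal list had 3 of 16 genes higher at 10 weeks (score 9.86 to 10.80 against 10.32 to 10.91) and the basal list 1 of 11 (9.98 to 10.70 against 10.15 to 10.92), so epithelial markers were present in every library. In these bulk libraries fewer cells of a type and less RNA per cell cannot be told apart, and the part of the fibroblast, mast cell and cell cycle genes in the differences of *Fstl1*, *Gdf10*, *Fst* and the genes higher at 10 weeks was not tested.

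**Figure D4:**
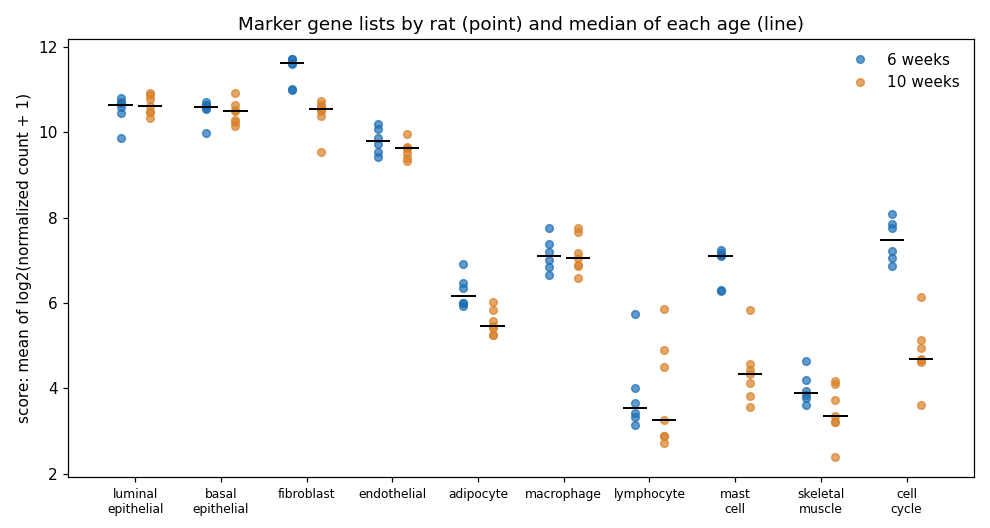
Score of each marker list (vertical axis, log2(normalized count + 1) averaged over the list) in each rat (point), with 6 weeks in blue, 10 weeks in orange and a line at the median. The fibroblast, mast cell and cell cycle scores of the 6-week rats lie above those of every 10-week rat, and the luminal and basal scores overlap.

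Beyond the members, 99 further genes of the pathway were listed by role, of which 84 were in the table. Of these 13 were higher at 6 weeks (15.5%, beside 8.71% of all genes) and 8 were higher at 10 weeks (9.52%, beside 7.39%). The 26 extracellular regulators held 8 genes higher at 6 weeks and 1 higher at 10 weeks, with a median log2 fold change of 0.47. The 27 cytoplasmic and nuclear regulators held 1 gene higher at 6 weeks and 4 higher at 10 weeks, with a median of -0.21. The 21 transcriptional targets were divided, with 3 in each direction, the 8 further receptors and co-receptors held 1 gene higher at 6 weeks, and the 2 further ligands none. *Col1a1* and *Dcn* of this list also belong to the fibroblast list. The fibroblast score did not overlap between the ages, and its part in the calls of the further genes was not tested.

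Among the extracellular regulators, *Bmper*, a BMP-binding protein gene, was read at 160 to 414 (median 292.5) at 6 weeks and at 25 to 116 (median 84) at 10 weeks, without overlap (log2 fold change 2.01, SE 0.37, limma adjusted p = 0.00341). *Cd109*, which encodes a TGF-beta co-receptor that dampens signalling, had a log2 fold change of 1.82, *Sostdc1*, an antagonist of BMP and WNT, 1.12, and *Htra3*, a secreted protease, 1.07. The call of *Htra3* (limma adjusted p = 0.0495) was kept in 3 of 13 fits that left out 1 rat (without rat 78, 81 or 86) and was lost under median-ratio scaling (0.0526), scaling by totals (0.0508), the smaller pseudocount (0.0543) and in the larger set of rats (0.0835). The microfibril genes *Fbn1* and *Fbn2*, whose products anchor latent TGF-beta complexes, stood at 1.44 and 1.10. *Fbn1* was read at 6337 to 11466 at 6 weeks and at 2436 to 4102 at 10 weeks. *Thbs1*, which encodes thrombospondin 1, an activator of latent TGF-beta, went the other way. Its normalized count ran from 97503 to 138520 (median 127304.5) at 6 weeks and from 185478 to 265106 (median 243534) at 10 weeks, and it was 1.95-fold higher at 10 weeks without overlap (log2 fold change -0.97, SE 0.12, limma adjusted p = 0.000318).

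The targets did not move together. The matrix genes *Postn*, *Fn1* and *Col1a1* were higher at 6 weeks, with log2 fold changes of 2.15, 1.93 and 1.92 (limma adjusted p = 0.000523, 0.000113 and 0.00434). *Fn1* was read at 13863 to 29055 in the younger rats and at 3723 to 6242 in the older rats. *Ctgf* and *Cyr61*, which encode matricellular proteins, and *Timp1*, a metalloprotease inhibitor gene, were higher at 10 weeks, with log2 fold changes of -0.70, -0.42 and -0.63 (limma adjusted p = 0.0106, 0.00986 and 0.0467). The calls of *Ctgf* and *Cyr61* were kept in 13 of 13 fits that left out 1 rat, and that of *Timp1* in 1 (without rat 78), with *Timp1* also lost under scaling by library totals (adjusted p = 0.0597) and in the larger set of rats (0.0783). Of the intracellular regulators, *Nedd4l*, a ubiquitin ligase gene acting on SMADs, was read at 2453 to 3090 at 6 weeks and at 3913 to 4835 at 10 weeks (log2 fold change -0.63, limma adjusted p = 0.000985). *Ctgf*, *Cyr61*, *Timp1* and *Nedd4l* were named after their values were seen, since they are not among the 10 largest differences of the list. Of the other called genes, *Bgn*, *Chrd*, *Acvrl1* and *Rbl1* were higher at 6 weeks (log2 fold changes 0.86, 0.77, 0.77 and 0.70). *Hipk2*, *Usp15* and *Sp1* were higher at 10 weeks (-0.42, -0.40 and -0.37). With 1 rat left out, *Bgn*, *Acvrl1* and *Rbl1* were called in 13 of 13 fits. *Hipk2* was called in 7, *Chrd* in 6, *Usp15* in 4 and *Sp1* in 3. Under scaling by library totals *Hipk2*, *Usp15* and *Sp1* were no longer called (limma adjusted p = 0.0516, 0.0568 and 0.0938). The weakly read *Chrd*, at 13 to 19 at 6 weeks and 5 to 14 at 10 weeks, was not called by limma-trend (adjusted p = 0.11). *Chrd*, *Acvrl1* and *Rbl1* were not called in the larger set of rats.

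Of the 8 called members, *Fstl1*, *Acvr1b* and *Smad9* were called in 13 of 13 fits that left out 1 rat, *Smad3* in 6, *Tgfbr3* in 5, and *Fst*, *Gdf10* and *Smurf1* in 4 each. Without rat 70, 78, 84 or 87 the calls among the members came down to the 3 that hold throughout. When libraries were scaled by their totals alone, *Smad3*, *Tgfbr3* and *Smurf1* were no longer called (limma adjusted p = 0.0763, 0.0688 and 0.107). In the 8 rats of the larger set *Fstl1*, *Smad9* and *Acvr1b* had log2 fold changes of 0.96, -1.69 and -0.44, and within the smaller set of 5 rats 1.28, -2.42 and -0.49. *Fst* differed more in the larger set (0.87 against 0.31), as did *Tgfbr3* (-0.63 against -0.11) and *Smad3* (-0.44 against -0.17), and a difference between the sets was not tested.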

How the data were processed

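The members and gene lists were chosen with earlier results of these data known, and 1 gene is not reported here. RNA-seq reads were quantified by the submitters with RSEM 1.2.22 (genome build rn5 in the processing notes), and the authors deposited 1 table for all 13 rats. Its per-rat values are a score, taken here to be counts that the authors scaled between libraries and rounded to whole numbers. They were therefore not treated as raw counts, and read depth per library is not given by the table. Totals of these values were 13261906 to 15659533 at 6 weeks and 13766735 to 15402814 at 10 weeks. The table also holds the authors' own comparisons (mean abundance, fold changes, p-values, false discovery rates, status and location columns), which were not used.

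Values were tested as log2(value + 1), without rescaling, with limma 3.58.1 in R 4.3.3 (a term for age, empirical Bayes moderation, 13 rats) over the 14790 genes with a mean of at least 1. Benjamini-Hochberg adjustment ran over all genes at a threshold of 0.05. The fit was run on simulated data with independent noise and changes planted only in more strongly read genes, larger than most of the member calls. That run does not cover weakly read genes, small differences or the sets of rats. Members past the threshold, or with an unadjusted p under 0.05, are given in full and the rest by role. Of the other pathway genes the 10 largest called differences are named by rule. The remaining called genes were added after their values were seen. Alternatives were scaling (median ratio, totals, upper quartile), a minimum of 10 in every rat, 0.1 as the pseudocount, limma-trend, sample weights, the first residual component, the larger and smaller sets of rats, and leaving out each rat. Promoter windows were read from RefSeq (GRCr8). Rats are separate animals with 1 library each. Other tools were Python 3.11.15, pandas 2.3.3, numpy 2.4.6 and matplotlib 3.10.9.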

Additional observations from a re-analysis of the deposited data

Results flagged for a closer look

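In 4 of 102 sets of values (1 member at 1 age) the highest or lowest rat lay apart from the others by Dixon's criterion, which chance alone would do in about 1 set in 20. *Gdf10* at 10 weeks was highest in rat 81, at 23, with the next rat at 13. *Smad2* at 10 weeks was highest in rat 74, at 790, with the next at 648. *Acvr1b* at 6 weeks was lowest in rat 86, at 383, with the next at 407. *Acvr1c* at 6 weeks was lowest in rat 75, at 7, with the next at 31.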

How the results depend on the processing

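The number of members higher at 6 weeks (3) ranged from 1 to 3 and the number higher at 10 weeks (5) from 2 to 5 when 1 rat was left out. It was 1 at 6 weeks without rat 70, 74, 75, 78, 84, 85 or 87, and 2 at 10 weeks without rat 70, 72, 78, 84 or 87. Scaling by library totals left 2 members higher at 10 weeks, and over all genes it changed the split from 1288 higher at 6 weeks and 1093 higher at 10 weeks to 1297 and 772. The first residual component was taken from these same values after removing the age means, so more calls with it are not independent support. As a term it gave 6 members higher at 6 weeks, and sample weights gave 5. The larger set of rats gave 8 members higher at 10 weeks and a median log2 fold change over the members of -0.11. The smaller set, an alternative chosen after seeing the data with 2 rats against 3, gave 0 members in either direction (7 at an unadjusted p under 0.05), a median of 0.18 and for *Smad7* a log2 fold change of 0.076, of opposite sign to that in all rats. Over all genes, the calls at 6 and at 10 weeks came to 1875 and 1651 with that term, 1987 and 1491 in the larger set, 3009 and 2638 with sample weights, 0 and 0 in the smaller set, and 803 to 1461 and 608 to 1219 with 1 rat left out (lowest without rat 70). A minimum of 10 in every rat removed *Gdf10* and *Smad9* from the test. The causes of these changes were not tested. Of the values of single named genes across these fits, 685 kept their direction and side of the threshold, 141 lost the call and 8 gained one. No paired analysis was possible because the rat numbers of the 2 ages are not shared. Read depth is unknown, so the counting error of weakly read members such as *Smad9* and *Gdf10* cannot be given. Zeros ran from 73 genes in rat 70 to 463 in rat 80, with 434 in rat 78. In 7 libraries some whole numbers from 1 to 30 were absent (rats 75, 80, 78 and 81 of the smaller set and 72, 74 and 87 of the larger). *Smad9* was lowest in rat 80, at 2, and its log2 fold change without that rat was -1.59. Whether depth differed between the libraries was not tested.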
